A study of Mus musculus with 6 samples.

Results

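The 9 genes examined here move sodium, chloride and water across the epithelium and blood vessels of the mouse lung: Scnn1a, Scnn1b, Scnn1g, Cftr, Aqp1, Aqp4, Atp1b1, Slc12a2 and Ano1. They were taken by gene symbol from a count table of 41388 genes, and all 9 were found and passed the filter on low counts that left 18660 genes for testing. The table holds lung RNA of adult mice collected at Zeitgeber time 7 (ZT7), 7 h after lights on, in libraries of 3 wild type mice (WT1 to WT3) and 3 Zpbp2 KO mice (KO1 to KO3). All mice were C57BL/6J, and the sex of each mouse was not given in the labels. The KO mice, of the strain B6.129S7-Zpbp2tmZuk/Mmjax, have a deletion at the 5′ end of Zpbp2 (exons 1 to 3, with part of its promoter and enhancer) on this background, and WT mice were raised in the same colony. The study asked how the region around Zpbp2 and the circadian clock affect each other, and the comparison of KO with WT asks here how far the transport genes differ between the genotypes.

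The airway and alveolar surface is covered by a thin liquid film whose depth is set by ion transport. Sodium enters epithelial cells from the film through the epithelial sodium channel (ENaC), a channel built from alpha, beta and gamma subunits, and is pumped out on the blood side by the Na,K-ATPase, so that water follows into the tissue. Chloride moves the other way through apical channels such as CFTR, with the cotransporter NKCC1 loading the cell from the blood side, and aquaporins let water through the membranes. ENaC is best known in the lung for clearing fluid from the airspaces at birth, and loss of CFTR causes cystic fibrosis.

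Total counts ranged from 59134950 to 71354388 per library. Zpbp2 had 20, 15 and 7 counts in WT1 to WT3 and 1, 0 and 0 counts in KO1 to KO3, which matched the labels. KO2 and KO3 differed by little more than counting noise: the variance between them was 1.71 to 1.94 times that of counting alone for genes from 20 to 20000 counts, while over that range it reached 9.27 times between WT1 and WT2 and 21.1 times between KO1 and KO2. The counts of KO2 and KO3 were therefore summed and used as 1 sample, giving 3 WT samples and 2 KO samples. The labels give KO2 and KO3 as different mice, and the reason for their likeness is not known. The fit with 6 separate libraries is given where it changes a call. WT3 and KO1 stood apart from the other libraries on the leading principal component (52.3% of variance). Summed markers of squamous epithelium reached 4877 in WT3 and 9306 in KO1 in CPM (counts scaled to a common library size), and only 21.1 to 33.4 elsewhere. Lung markers were present in every library, with Sftpc of alveolar type 2 cells at 12108 to 19569 CPM, Scgb1a1 of club cells at 23366 to 42793 CPM and Ager of alveolar type 1 cells at 2036 to 2876 CPM. Kidney tubule markers, examined because the same channels serve the kidney, summed to at most 1.58 CPM.

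None of the 9 genes passed an adjusted p of 0.05 in the edgeR quasi-likelihood test, in which 2.28% of all tested genes did (1.38% higher and 0.906% lower in KO), and 2 had an unadjusted p under 0.05, where 27.3% of all genes did (13.9% higher and 13.4% lower). Atp1b1 came closest, at 1.30 times the WT level with an adjusted p of 0.0593. The KO and WT libraries did not overlap for 4 of the 9 genes, Atp1b1, Scnn1b and Cftr with KO above WT and Aqp4 with KO below WT, against 40.8% of all tested genes (20.1% above and 20.7% below). The median log2 fold change was -0.01 over the 9 genes and 0.02 over all tested genes. With 6 separate libraries 1 of the 9, Atp1b1, was called, against 18.9% of all genes.

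**Figure D1:**
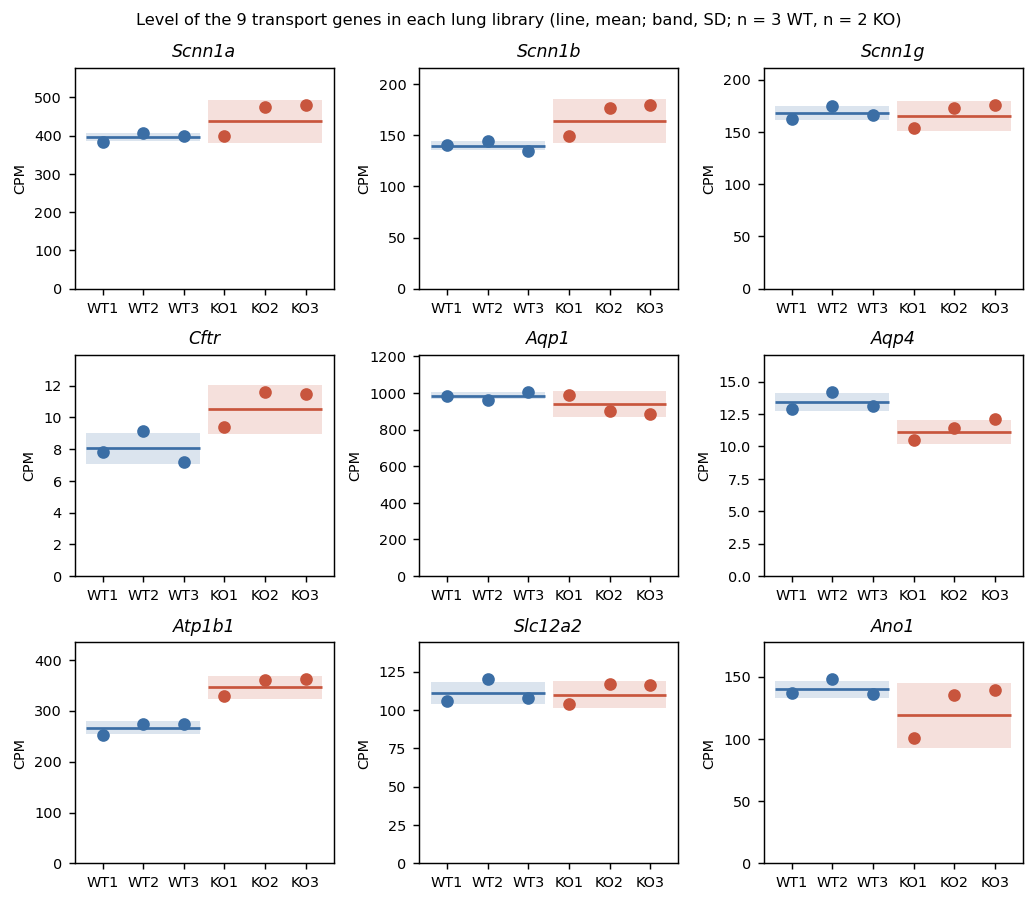
Level of each transport gene in CPM (y axis, from 0) in the 6 lung libraries (x axis, points). Lines are the mean of the genotype and bands its SD, with KO2 and KO3 counted as 1 sample; for Atp1b1 the KO points lie at 330 to 362 CPM, all above the WT points at 253 to 275 CPM.

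**Figure D2:**
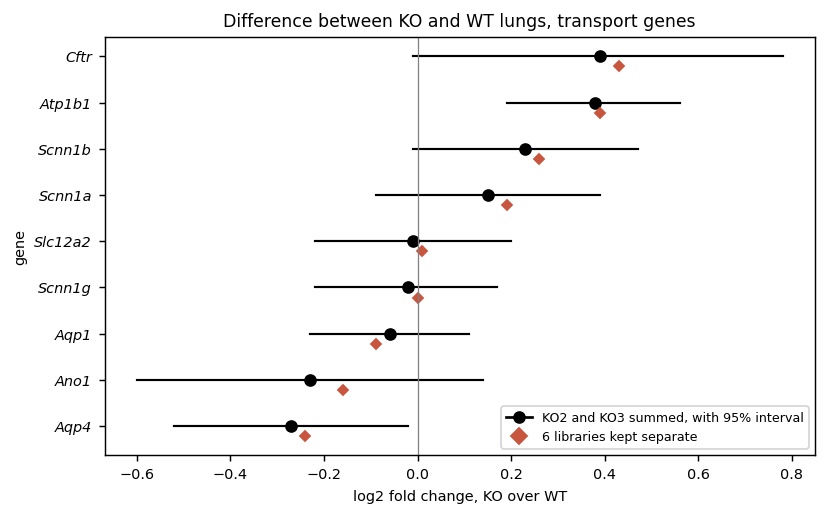
Log2 fold change of KO over WT (x axis) for each transport gene (y axis), with its 95% interval in black for the fit with KO2 and KO3 summed, and the estimate with 6 separate libraries as red diamonds. Intervals that leave out 0 belong to Atp1b1 (0.19 to 0.56) and Aqp4 (-0.52 to -0.02), before adjustment over all genes.

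The 3 ENaC subunits were compared first. Scnn1a encodes the alpha subunit, without which the channel does not reach the membrane in an active form. It lies on chromosome 6 from 125320659 to 125344943 of GRCm38, plus strand. Its level was 384, 406 and 398 CPM in WT1 to WT3 and 399, 475 and 481 CPM in KO1 to KO3. KO1 lay inside the WT range and the closely matching KO2 and KO3 lay above it, so the groups overlapped. The means were 396 ± 11.1 (n = 3, SD of CPM) in WT and 438 ± 56.3 (n = 2, SD of CPM) in KO, and the difference of 0.15 on the log2 scale (SE 0.10, 95% interval -0.09 to 0.39) was within the spread of the samples, with an edgeR adjusted p of 0.369. Without KO1 the estimate was 0.27 (adjusted p 0.125), and with an offset for exon length and GC content it was 0.07 (adjusted p 0.76).

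Scnn1b and Scnn1g, for the beta and gamma subunits, are neighbours on chromosome 7, both on the plus strand. Scnn1g spans 121734479 to 121768475 and Scnn1b 121865038 to 121918514, with 96.6 kb between them. The gene Cog7 overlaps Scnn1b on the other strand and shares 0 exon bases with it. Scnn1b was at 141, 144 and 135 CPM in WT1 to WT3 and at 149, 177 and 180 CPM in KO1 to KO3. Each KO library exceeded each WT library, KO1 by the least. The mean went from 140 ± 4.60 (n = 3, SD of CPM) in WT to 164 ± 21.1 (n = 2, SD of CPM) in KO, which is 0.23 on the log2 scale (SE 0.09, interval -0.01 to 0.47) with an edgeR adjusted p of 0.203. It passed only without WT3 and KO1 (log2 fold change 0.32, adjusted p 0.0473), out of 17 alternatives with adjusted p values from 0.0473 to 0.735, and with the length and GC offset the estimate was 0.08.

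Scnn1g was at 162, 175 and 166 CPM in WT1 to WT3 and at 154, 173 and 176 CPM in KO1 to KO3. The groups overlapped, with KO1 lowest and KO3 highest of the 6 libraries. The means were 168 ± 6.63 (n = 3, SD of CPM) and 165 ± 14.3 (n = 2, SD of CPM). KO over WT gave -0.02 on the log2 scale (SE 0.08) with an adjusted p of 0.876, and its interval of -0.22 to 0.17 limits a difference to between 0.859 and 1.13 times the WT level.

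The stretches of 250 bases before the start sites of these neighbouring subunit genes are given because Scnn1b and Scnn1g share a locus and a channel. They are RefSeq sequences of GRCm38.p6, 5′ to 3′ on the strand of the gene, with capitals for GC boxes (GGGCGG on either strand). Scnn1b is chr7:121864788-121865037 and Scnn1g is chr7:121734229-121734478.
Scnn1b: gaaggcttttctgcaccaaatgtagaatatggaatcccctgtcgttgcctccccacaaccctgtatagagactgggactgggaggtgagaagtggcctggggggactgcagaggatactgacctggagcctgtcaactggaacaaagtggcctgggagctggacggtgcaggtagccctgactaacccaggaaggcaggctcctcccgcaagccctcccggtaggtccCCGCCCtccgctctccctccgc
Scnn1g: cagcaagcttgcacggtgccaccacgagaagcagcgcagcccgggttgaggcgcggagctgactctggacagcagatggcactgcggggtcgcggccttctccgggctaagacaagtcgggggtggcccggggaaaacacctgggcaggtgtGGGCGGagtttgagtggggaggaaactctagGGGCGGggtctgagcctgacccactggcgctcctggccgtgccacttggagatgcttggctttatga

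Scnn1b held 1 GC box, 22 bases before its start, and Scnn1g held 2, at 98 and 67 bases before it. A GC box stood in the 250 bases before 32.7% of all 32851 RefSeq starts. The GC content was 60.8% for Scnn1b and 65.2% for Scnn1g, with 7 and 16 CG dinucleotides, against medians of 52.4% and 6 over all starts. Neither stretch held the E-box CACGTG bound by clock factors (6.02% of all starts), the letters TGTTCT of glucocorticoid response elements (16.1%), a TATAAA (12.4%), a CCAAT (33.8%), an AP-1 site TGACTCA (4.46%) or a cAMP response element TGACGTCA (1.55%). All motifs were searched on both strands as letters only, and overlapping matches were counted.

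Because subunits of 1 channel can be compared within a library, the ratio of their levels per kb of exon was taken. No scaling of whole libraries can move it, but an offset for exon length and GC content can. Scnn1a was the most abundant subunit, at 1.71 ± 0.0294 (SD, n = 3) times the level of Scnn1g in WT and 1.93 ± 0.0809 (SD, n = 2) times in KO. The ratio of Scnn1b to Scnn1g was 0.991, 0.937 and 0.926 in WT1 to WT3 and 1.09, 1.16 and 1.16 in KO1 to KO3. Every KO library, KO1 included, was thus above every WT library in both ratios. The ratios share genes and are not independent, and 40.8% of single genes had levels without overlap. The ratio of Scnn1a to Scnn1b moved less, from 1.80 ± 0.0728 (SD, n = 3) in WT to 1.71 ± 0.000618 (SD, n = 2) in KO. These ratios were chosen after their values were seen, and 5 are given here. The one whose groups overlapped was Aqp4 to Aqp1, at 0.00575 ± 0.000401 (SD, n = 3) in WT and 0.00501 ± 0.000785 (SD, n = 2) in KO (exact permutation p 0.6). With 3 samples against 2 the two-sided exact permutation test cannot go below 0.2, and it gave 0.2 for each of the 3 subunit ratios (0.25 after Benjamini-Hochberg adjustment over 5).

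Atp1b1 encodes the beta-1 subunit of the Na,K-ATPase, which is needed for the pump to fold and reach the membrane. It lies on chromosome 1 from 164437109 to 164458355, minus strand, and shares 575 exon bases with Nme7 on the other strand. Whether counting used the strand was not stated, and Nme7 itself had 375 to 527 counts in a library, against 16410 to 22307 for Atp1b1. The level of Atp1b1 was 253, 275 and 274 CPM in WT1 to WT3 and 330, 360 and 362 CPM in KO1 to KO3. All KO libraries were well above all WT libraries, and KO1 was the lowest of the KO libraries. The mean was 267 ± 12.6 (n = 3, SD of CPM) in WT and 346 ± 21.9 (n = 2, SD of CPM) in KO. The difference was 0.38 on the log2 scale (SE 0.07, interval 0.19 to 0.56), with an unadjusted p of 0.00318 and an edgeR adjusted p of 0.0593.

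The call on Atp1b1 depended on the fit. It was called with 6 separate libraries (log2 fold change 0.39, edgeR adjusted p 0.0116), where 18.9% of all genes were. It was also called with DESeq2 (0.37, adjusted p 2.8e-05), where 3875 of 26985 genes were. The estimate was 0.43 without KO1 and 0.45 without WT3 and KO1, each with a lone summed KO sample. Atp1b1 was not called with the length and GC offset (0.30, edgeR adjusted p 0.112), where 3 of all genes were. With the offset and 6 separate libraries it was called (0.33, edgeR adjusted p 0.0271). It was not called without WT1, WT2 or WT3 (edgeR adjusted p 0.134 to 0.197). In those 3 settings 0 of all genes were called, so the missing call there is not particular to Atp1b1. The estimate stayed between 0.30 and 0.45 in all 17 alternatives.

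The 250 bases before the Atp1b1 start are given since this gene had the largest difference relative to its error. They are at chr1:164458356-164458605 of GRCm38.p6, written on the minus strand from RefSeq, with capitals for the GC boxes (as CCGCCC, 205 and 124 bases before the start) and a CCAAT box (as ATTGG, 81 bases before it).
Atp1b1: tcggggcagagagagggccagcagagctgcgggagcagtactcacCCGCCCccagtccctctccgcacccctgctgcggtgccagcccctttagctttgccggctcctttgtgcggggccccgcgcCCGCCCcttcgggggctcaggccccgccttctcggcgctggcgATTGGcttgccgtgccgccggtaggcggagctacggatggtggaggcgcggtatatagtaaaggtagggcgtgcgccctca

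This stretch was 70.4% GC with 24 CG dinucleotides and held none of the E-box, glucocorticoid, AP-1 or cAMP motifs named above.

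Cftr encodes the cAMP-gated chloride and bicarbonate channel of the airway and lies on chromosome 6 from 18170687 to 18322768, plus strand. An antisense gene shares 129 exon bases with it and had 0 counts in every library. Cftr was the least abundant of the 9 genes per kb, with 432 to 722 counts in a library. Its level was 7.84, 9.14 and 7.21 CPM in WT1 to WT3 and 9.41, 11.6 and 11.5 CPM in KO1 to KO3. KO1 was just above the highest WT library, and KO2 and KO3 were clearly above it. The mean was 8.06 ± 0.983 (n = 3, SD of CPM) in WT and 10.5 ± 1.53 (n = 2, SD of CPM) in KO. A difference of 0.39 on the log2 scale (SE 0.15, interval -0.01 to 0.78) was close to that of Atp1b1 but had a larger error, and its edgeR adjusted p was 0.191. It passed in 1 of the 17 alternatives, 6 separate libraries with the length and GC offset (0.54, adjusted p 0.0271), in a range of 0.0271 to 0.373.

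The promoter of Cftr is given as the richest in GC boxes among the 6 promoters searched. It is chr6:18170437-18170686 of GRCm38.p6, plus strand, with GC boxes in capitals at 236, 192, 188, 184, 138 and 67 bases before the start, those at 192, 188 and 184 overlapping each other.
Cftr: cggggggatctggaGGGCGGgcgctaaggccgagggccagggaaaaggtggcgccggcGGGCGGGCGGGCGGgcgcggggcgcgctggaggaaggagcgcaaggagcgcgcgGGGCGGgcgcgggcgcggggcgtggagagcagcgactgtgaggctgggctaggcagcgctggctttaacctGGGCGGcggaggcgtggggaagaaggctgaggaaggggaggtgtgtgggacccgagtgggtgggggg

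The GC content of this stretch was 76.4%, with 30 CG dinucleotides. It held no E-box, glucocorticoid, AP-1, cAMP, TATA or CCAAT letters.

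Ano1 encodes TMEM16A, a chloride channel opened by calcium in secretory epithelium and smooth muscle, on chromosome 7 from 144588549 to 144751974, minus strand. It was at 137, 148 and 136 CPM in WT1 to WT3 and at 101, 135 and 139 CPM in KO1 to KO3. KO1 alone was low, 26.6% below the mean of KO2 and KO3 (a log2 difference of -0.45), while KO2 lay just under the lowest WT library and KO3 lay inside the WT range. The means were 140 ± 6.77 (n = 3, SD of CPM) and 119 ± 25.9 (n = 2, SD of CPM), and KO over WT gave -0.23 on the log2 scale (SE 0.14) with an adjusted p of 0.366. Without KO1 it was -0.03, so the estimate rested on that library.

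The chloride channels, neither of which was called, were also compared by their ratio. Per kb of exon, Ano1 was 21.7, 20.1 and 23.4 times as abundant as Cftr in WT1 to WT3, and 13.3, 14.5 and 15.1 times in KO1 to KO3. The groups did not overlap, and KO1 lay beside KO2 and KO3 in this measure although its level of each gene was lower than theirs. The mean ratio was 21.8 ± 1.62 (SD, n = 3) in WT and 14 ± 1.03 (SD, n = 2) in KO, with an exact permutation p of 0.2, the smallest this design allows. The pair was chosen after its values were seen, and how many other gene pairs have ratios without overlap was not tested, while 40.8% of single genes had levels without overlap.

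Slc12a2 encodes NKCC1, the sodium, potassium and chloride cotransporter that loads chloride into secreting cells, on chromosome 18 from 57878678 to 57946821, plus strand. Its level was 106, 120 and 108 CPM in WT1 to WT3 and 104, 117 and 116 CPM in KO1 to KO3. The genotypes overlapped, with KO1 just under the lowest WT library, and had means of 111 ± 7.30 (n = 3, SD of CPM) and 110 ± 8.58 (n = 2, SD of CPM). KO over WT gave -0.01 on the log2 scale (SE 0.08) with an adjusted p of 0.964, and the interval of -0.22 to 0.20 limits a difference to 0.859 to 1.15 times the WT level. Slc12a2 has 10920 exon bases, the most of the 9 genes, and with the length and GC offset the estimate turned to 0.17 (adjusted p 0.152), or to 0.18 (adjusted p 0.0471) with 6 separate libraries and the offset.

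**Figure D3:**
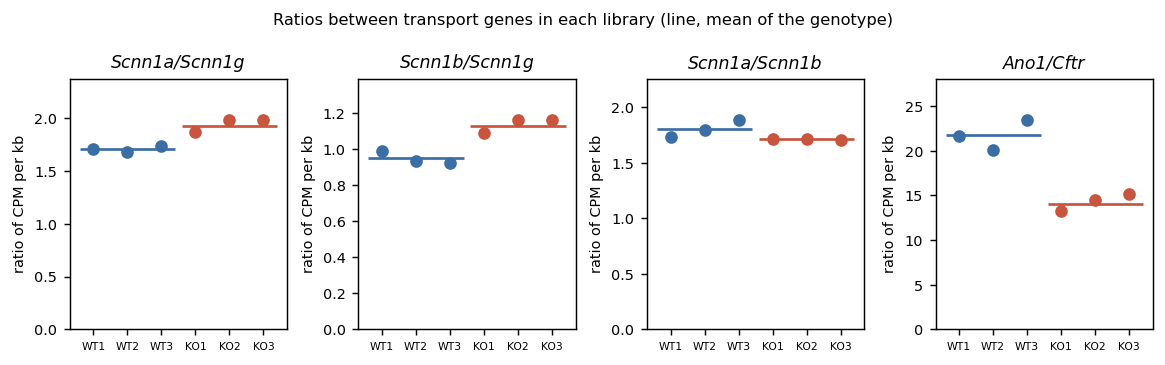
Ratio of the levels per kb of exon of 4 of the 5 gene pairs compared (y axis, from 0) in each library (x axis, points), with a line at the mean of each genotype. In the Ano1 to Cftr panel the KO points lie at 13.3 to 15.1 and the WT points at 20.1 to 23.4.

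The water channels were examined next. Aqp1, the aquaporin of lung capillary endothelium and red cells, lies on chromosome 6 from 55336432 to 55348555, plus strand, and was the most abundant of the 9 genes. Its level was 986, 964 and 1006 CPM in WT1 to WT3 and 990, 900 and 884 CPM in KO1 to KO3. KO1 lay in the WT range, and KO2 and KO3 lay below it. The means were 986 ± 20.8 (n = 3, SD of CPM) and 941 ± 69.2 (n = 2, SD of CPM), a log2 fold change of -0.06 (SE 0.07, interval -0.23 to 0.11) with an adjusted p of 0.597. Without KO1 the estimate was -0.15 (adjusted p 0.284), and with 6 separate libraries and the length and GC offset it was -0.23 and passed (adjusted p 0.0256).

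Summed endothelial markers, of which all 10 were detected, were at 5361, 5026 and 5525 CPM in WT1 to WT3 and at 5953, 4879 and 4882 CPM in KO1 to KO3. The sum was lowest in KO2 and KO3 by a narrow margin, and of the 10 markers 3 had all KO libraries above all WT libraries and 1 had them below. Erythroid markers, with 8 of 10 listed genes in the table, summed to 2416 to 5552 CPM in WT, 3990 CPM in KO1 and 19106 and 19842 CPM in KO2 and KO3, while Aqp1 was lowest in those last 2 libraries. The part of endothelial cells in the level of Aqp1 was not tested. In whole lung RNA, fewer cells of a type and less RNA per cell cannot be told apart.

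Aqp4, a water channel of the basolateral side of airway epithelium, lies on chromosome 18 from 15389496 to 15410982, minus strand, with 658 to 997 counts in a library. It was at 12.9, 14.2 and 13.1 CPM in WT1 to WT3 and at 10.5, 11.4 and 12.1 CPM in KO1 to KO3. All KO libraries were below all WT libraries, with KO1 lowest. The mean was 13.4 ± 0.687 (n = 3, SD of CPM) in WT and 11.1 ± 0.927 (n = 2, SD of CPM) in KO, which is -0.27 on the log2 scale (SE 0.10, interval -0.52 to -0.02). The unadjusted p was 0.0405 and the edgeR adjusted p 0.165, and it stayed at or above 0.0648 in the 17 alternatives, all of which gave an estimate under 0.

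In the order of levels per kb, WT lungs had Aqp1 at 367 to 383 CPM per kb, then Scnn1a at 92.9 to 98.2, Atp1b1 at 82.0 to 89.4, Scnn1g at 54.2 to 58.5, Scnn1b at 51.4 to 54.8, Ano1 at 21.7 to 23.7, Slc12a2 at 9.72 to 10.9, Aqp4 at 2.07 to 2.28 and Cftr at 0.928 to 1.18. Only the neighbours Scnn1g and Scnn1b overlapped in WT. In KO lungs the same genes followed each other except that Atp1b1 (107 to 118) came before Scnn1a (96.5 to 116) and Scnn1b (56.5 to 68.3) before Scnn1g (51.6 to 58.8). Both of these pairs overlapped in KO, so their order there is not fixed by the data. Exon lengths are those of all annotated exons of a gene together, so a gene with many rare exons has its level per kb understated.

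KO1 differed from KO2 and KO3 in most of these genes. It was lower than their mean for 8 of the 9, by 8.59% for Atp1b1, 16.7% for Scnn1a and Scnn1b, 18.6% for Cftr and 26.6% for Ano1, and higher by 11.0% for Aqp1. KO2 and KO3 differed by at most 0.08 on the log2 scale, for Aqp4. Within WT the log2 range was 0.06 for Aqp1 to 0.34 for Cftr.

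For each gene the tested genes with the most similar course over the 6 libraries were found by the root mean square distance of centred log2 CPM, among 12570 genes at 5 CPM or more on average. Atp1b1 was closest to Gpt (0.0166) and Ccnd1 (0.0207), Scnn1b to Wdyhv1 (0.0198) and Bphl (0.0263), and Scnn1a to Rbm28 (0.0196) and Tcte2 (0.0206). Cftr was closest to Bcl2l14 (0.0410) and Riiad1 (0.0475), Ano1 to Son (0.0298) and Tanc2 (0.0359), and Aqp4 to Smad9 (0.0134) and Ralgapb (0.0179). Aqp1 lay nearest to Tle4 (0.0109) and Hsp90ab1 (0.0125), Scnn1g to Slc25a40 (0.00811) and Fam120b (0.0115), and Slc12a2 to Fgf1 (0.0162) and Zfp266 (0.0167). A gene that hardly varies finds close partners among the many other genes that hardly vary, as for Scnn1g.

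The other genes of the pathway were taken from 8 lists with 116 symbols, of which 114 were in the table and 105 were tested. In edgeR 4 were called higher and 2 lower in KO, against 1.38% and 0.906% of all tested genes, with a median log2 fold change of 0.06. Of these 6, 4 are in the list of ENaC control genes, which had 24 of 24 tested. ENaC is activated when proteases cut its alpha and gamma subunits. St14 (matriptase), a membrane protease of that cascade, rose from a mean of 54.1 ± 2.11 (n = 3, SD of CPM) to one of 72.5 ± 2.19 (n = 2, SD of CPM), a log2 fold change of 0.43 (adjusted p 0.0446, SE 0.05). Spint1 and Spint2, Kunitz inhibitors of such proteases, rose too. Spint2 was at 183, 182 and 193 CPM in WT1 to WT3 and at 294, 302 and 294 CPM in KO1 to KO3, a log2 fold change of 0.67 (edgeR adjusted p 0.0446, SE 0.05), and Spint1 had 0.55 (adjusted p 0.0454, SE 0.07). The KO libraries lay far above the WT libraries and close to each other, KO1 included. Prss8, the channel-activating protease prostasin, was at 71.2 to 77.1 CPM in WT and 95.5 to 108 CPM in KO, a log2 fold change of 0.45 that just missed the threshold (adjusted p 0.0510) and was named after its values were seen.

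Nr3c2, the mineralocorticoid receptor through which aldosterone raises ENaC activity, fell from a mean of 28.7 ± 0.721 (n = 3, SD of CPM) to one of 20.2 ± 0.859 (n = 2, SD of CPM), a log2 fold change of -0.50 (adjusted p 0.0446, SE 0.07). Bpifa1, a secreted airway protein that inhibits ENaC and the most abundant gene of the list, was at 1197, 1182 and 832 CPM in WT1 to WT3 and at 208, 570 and 572 CPM in KO1 to KO3, with an adjusted p of 0.133. Among aquaporins, 6 of 10 were tested and 2 called, against 2.28% of all tested genes. Aqp5, the apical water channel of alveolar type 1 and gland cells, rose from 275, 290 and 265 CPM in WT1 to WT3 to 372, 405 and 399 CPM in KO1 to KO3 (log2 fold change 0.49, SE 0.07, adjusted p 0.0474), but had 0.21 and an adjusted p of 0.336 with the length and GC offset. Aqp7, a glycerol channel of adipocytes, fell from a mean of 6.90 ± 1.60 (n = 3, SD of CPM) to one of 0.734 ± 0.0264 (n = 2, SD of CPM), a log2 fold change of -3.22 (adjusted p 0.0446, SE 0.26). It is also in the adipocyte marker list, whose sum was 762 to 1107 CPM in WT and 170 to 250 CPM in KO.

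The remaining 6 lists had 0 genes called in edgeR, and at an unadjusted threshold of 0.05 had 15 genes higher and 5 lower of 75 tested, against 13.9% and 13.4% of all genes. Their medians were 0.08 for sodium pump and FXYD genes (14 tested), 0.07 for chloride and bicarbonate transport (23), -0.03 for cation chloride cotransporters (7), -0.01 for anoctamins (9), 0.15 for potassium channels (11) and 0.14 for receptors (11). The most abundant genes of 5 of these lists had adjusted p values of 0.0845 for the scaffold Slc9a3r2, 0.693 for Slc12a7, 0.918 for the scramblase Ano6, 0.925 for Kcnj15 and 0.258 for Adcy6. With 6 separate libraries 14 of 102 genes of the 8 lists were called higher and 8 lower, against 9.81% and 9.07% of all genes. None of the 6 called genes kept its call when WT1, WT2, WT3 or KO1 was left out, where adjusted p values were 0.0783 to 0.189, nor with the length and GC offset (0.0559 to 0.336), under which the estimates were 0.66 for Spint2, 0.39 for Spint1, 0.52 for St14, -0.44 for Nr3c2, 0.21 for Aqp5 and -3.31 for Aqp7. In those settings 0 of all genes were called without WT1, WT2 or WT3, 17 without KO1 and 3 with the offset. The estimates moved little when 1 library was left out, from 0.65 to 0.70 for Spint2, 0.51 to 0.61 for Spint1, 0.41 to 0.45 for St14, -0.53 to -0.47 for Nr3c2, 0.45 to 0.54 for Aqp5 and -3.38 to -3.05 for Aqp7. Only Aqp5 also lost its call with library size alone as scaling (0.44, edgeR adjusted p 0.0546). The same held with the offset and 6 separate libraries (0.25, edgeR adjusted p 0.131).

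**Figure D4:**
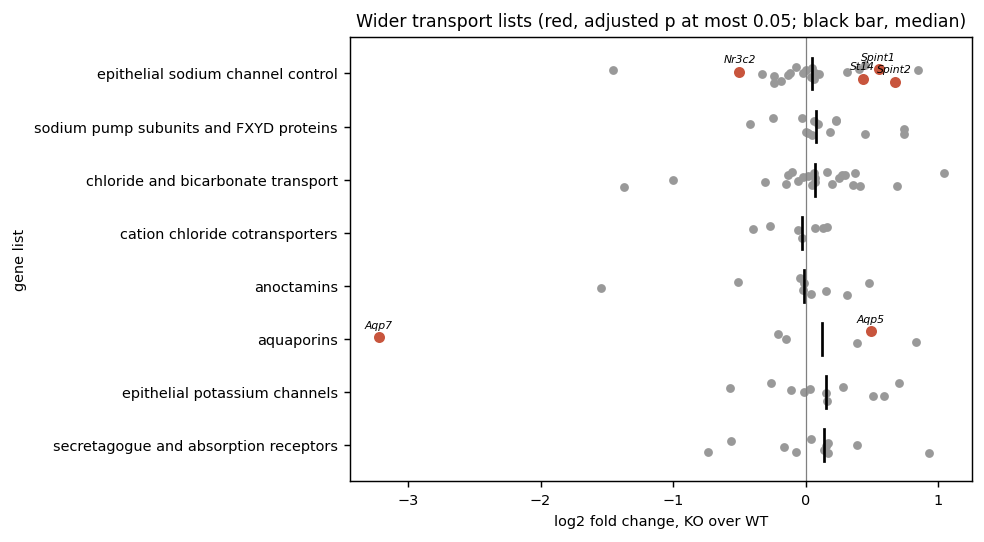
Log2 fold change of KO over WT (x axis) for each tested gene of the 8 wider transport lists (y axis). Red points passed an adjusted p of 0.05, grey points did not, and black bars are list medians, which lie between -0.03 and 0.15.

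Markers of the cell types that express these channels were measured beside them. Alveolar type 2 markers (10 of 10 in the table) summed to 22197 to 23218 CPM in WT and 31477 to 33230 CPM in KO. Of them 4 were called higher and 0 lower, against 1.38% and 0.906% of all tested genes. Alveolar type 1 markers (10 of 10) summed to 7979 to 8625 CPM in WT and 8752 to 9215 CPM in KO. Of them 3 were called higher, Ager and Aqp5 included, and 0 lower. All KO libraries lay above all WT libraries for 4 type 1 markers and below them for 2, against 20.1% and 20.7% of all tested genes. Without Ager the type 1 sum overlapped, at 5943 to 6544 CPM in WT and 5984 to 6339 CPM in KO. The median log2 fold change of the list was 0.01. Club cell markers (8 of 8) summed to 31996, 34565 and 29437 CPM in WT1 to WT3 and to 39150, 51659 and 51443 CPM in KO1 to KO3, with 0 of 8 called. Without Scgb1a1 the groups overlapped, at 6071 to 7092 CPM in WT and 7035 to 8889 CPM in KO, with KO1 lowest of the KO libraries and inside the WT range. Submucosal gland and goblet markers summed to 543 CPM in KO1 and 631 to 696 CPM elsewhere, although Lyz1, the most abundant of them, was highest in KO1 (354 CPM against 163 to 246 CPM in WT). Without Lyz1 the KO libraries had sums of 189, 382 and 396 CPM (KO1 to KO3), under the 449 to 473 CPM of WT. Ciliated markers (2200 CPM) and mesothelial markers (532 CPM) also had their lowest sum in KO1, but only Sec14l3 and Dnah5 of 9 ciliated markers were lowest there, and without Sec14l3 the ciliated sum was 878 to 947 CPM in WT and 1037 to 1260 CPM in KO. Cardiomyocyte markers summed to 3303 to 7897 CPM in WT and 1449 to 2169 CPM in KO, and macrophage markers to 345 to 420 CPM and 295 to 305 CPM. The smooth muscle sum was highest in KO1, at 2328 CPM against 1448 to 2087 CPM. Of the ionocyte markers, the defining factor Foxi1 had at most 2 counts in any library and Ascl3 had 5 to 20 counts. The list summed to 136 to 156 CPM, mostly from Atp6v1c2. Without that gene it was 53.5 to 63.5 CPM in WT and 41.4 to 44.6 CPM in KO. Pparg of this list had a mean of 21.0 CPM in WT and 11.4 CPM in KO. Of 7 tested ionocyte markers, 1 had all KO libraries above all WT libraries, 2 had them below, and 0 were called. The part of these cell types in the levels of the transport genes was not tested. A term for the level of the squamous markers left the 9 estimates between -0.25 and 0.44 and Atp1b1 at 0.38 (adjusted p 0.0351).

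**Figure D5:**
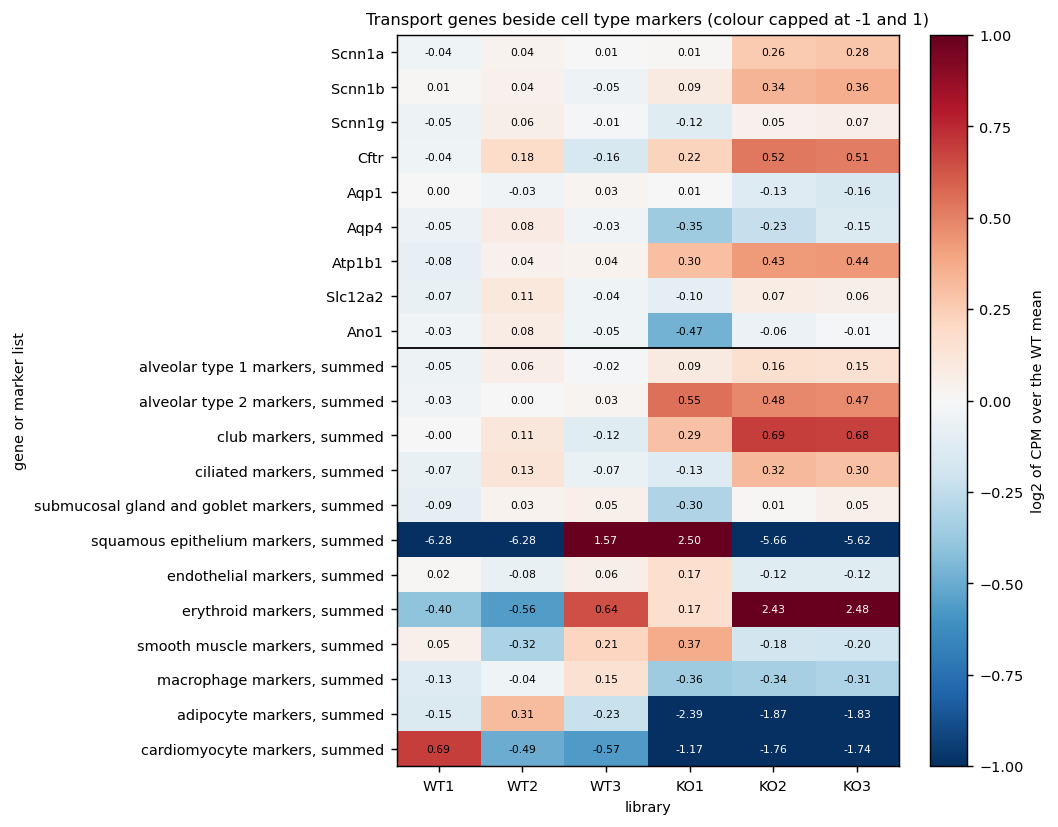
Log2 of the CPM in each library (columns) over the WT mean for the 9 transport genes (upper rows) and for summed markers of 12 cell types (lower rows), printed in each cell, with the colour capped at -1 and 1. For Cftr the cells read 0.52 in KO2, 0.51 in KO3 and 0.22 in KO1, and erythroid markers are highest in KO2 (2.43) and KO3 (2.48).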

How the data were processed

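RNA sequencing counts of lung from 3 WT and 3 KO mice at ZT7 were used. Per the labels and methods, the authors trimmed reads with Trimmomatic 0.36, aligned them to GRCm38 with STAR 2.5.3a and deposited raw read counts per gene from HTSeq 0.6.0. The annotation release and the strand setting are not given in the sources used here.

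Counts were analysed with edgeR 4.0.16 in R 4.3.3 (filterByExpr, TMM scaling, glmQLFit and glmQLFTest, two-sided), with Benjamini-Hochberg adjustment over all 18660 tested genes and a call at an adjusted p of at most 0.05. DESeq2 1.42.0 was an alternative. KO2 and KO3 were summed because they differed by little more than counting noise. CPM values use totals of 59134950 to 71354388 counts multiplied by TMM factors, and intervals are 95%. Standard errors came from the estimate and its F statistic. The fit was tested on simulated data. Coordinates and exon lengths are from GENCODE M21 (97.5% of gene identifiers matched) and promoters from RefSeq on GRCm38.p6, with entries used for 6 of the 9 genes (none for Scnn1a, Aqp4 and Slc12a2).

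The members and lists were chosen with earlier results of these data known. Genes named from the wider lists were those called (at most 4 a list) and the most abundant, from marker lists the most abundant, and for each member its 2 closest genes. Prss8, Foxi1, Ascl3, Pparg, Dnah5 and the genes overlapping a member were named outside this rule, after their values were seen. A gene that this rule names is not reported here. P-values measure the spread between these few mice.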

Additional observations from a re-analysis of the deposited data

How the results depend on the processing

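The number of the 9 transport genes called, 0 in the reported fit, was 1 (Atp1b1) with 6 separate libraries, with the replicate block, with DESeq2 and with the squamous epithelium term, 2 (Atp1b1 and Scnn1b) without WT3 and KO1, and 4 (Atp1b1, Cftr, Aqp1 and Slc12a2) with 6 separate libraries and the length and GC offset. These last settings were chosen after seeing the data. It was 0 in every setting that left out 1 replicate. The number of all genes called was 426, and 3402 with 6 separate libraries, 1157 with the replicate block, 909 with at least 10 counts in every sample, 3875 with DESeq2, 2226 with the squamous term, 3 under the offset for length and GC, 2134 with the offset and 6 separate libraries, 2256 without WT3 and KO1, and 0 to 418 when 1 replicate was left out, 0 without any one WT library (3346 to 4193 by the unadjusted p) and 17 without KO1. Scaling by total counts gave 306, of which 38.2% were higher in place of 60.3%. Genes tested numbered 18014 with 6 separate libraries, 26985 with DESeq2, 18660 with the squamous term and 18971 without WT3 and KO1. Both the replicate block and the last offset setting also kept the 6 libraries separate. With 6 separate libraries alone 18.9% of all genes were called, so 1 call among the 9 is no excess there. Whether the 9 exceeded all genes in the other settings was not tested.

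Scnn1g, at -0.02, turned to 0.002 with 6 separate libraries, to 0.05 without WT3 and KO1 and to between -0.04 and 0.06 when 1 replicate was left out (0.001 without WT2, 0.06 without KO1). Slc12a2, at -0.01, turned to 0.01 with 6 separate libraries, with or without the replicate block, and with the squamous term. It turned to 0.17 with the offset, 0.18 with the offset and 6 libraries and 0.04 without WT3 and KO1. It was between -0.04 and 0.06 when 1 replicate was left out (0.04 without WT2, 0.06 without KO1). The other 7 genes kept their direction in all 17 alternatives. The cause was not tested.

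Fold changes fell with exon length across 18524 genes (Spearman rho -0.33, a description), and with the offset rho was 0.04. Same-numbered WT and KO libraries had correlations of -0.48, 0.56 and -0.65 in their deviations from the genotype means. WT3 correlated best with KO1 (0.74), and these are the libraries with high squamous markers. The labels give no pairing beyond the number, and so few libraries cannot show whether one exists. With 6 separate libraries Atp1b1 was called at an edgeR adjusted p of 0.0392 with the replicate block and 0.0116 without it.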
